A study of Mus musculus with 27 samples.

Results

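Bone marrow-derived macrophages (BMDMs) stimulated for 4 h with lipopolysaccharide (LPS) were compared directly with BMDMs stimulated for 4 h with interleukin-4 (IL-4), and the genes that both stimuli moved away from the untreated level in opposite directions were named. BMDMs are primary macrophages grown in culture from mouse bone marrow, here from wild-type male C57/BL6 mice of 6 to 8 weeks. All cells, the untreated ones included, had been kept for 1 h with DMSO, a solvent control, before LPS or IL-4 was added at 10 ng/ml. There were 3 replicates each of LPS 4 h, IL-4 4 h and untreated cells, among 27 samples in 9 groups that also cover 0.5, 1 and 2 h of either stimulus. Chromatin-associated RNA was sequenced, a fraction rich in transcripts still attached to the template, so the values follow ongoing transcription, introns included, more closely than the pool of finished mRNA. Of 45070 annotated genes, 12096 (26.8%) reached 10 normalised read counts in 3 or more of the 6 stimulated samples and were tested. They held 99.2% of the normalised read counts of those samples, and 10063 of them are protein-coding. The untreated samples had no part in choosing the genes and served as the reference level.

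The deposited values are scaled by the authors, so they do not give the number of reads behind each sample. The sum of normalised read counts was 3817735 to 3905856 in the LPS samples, 2469768 to 2554318 in the IL-4 samples and 2488987 to 2578543 in the untreated samples. Replicate 1 stood apart from replicates 2 and 3 in each of these groups. The SD of the log2 difference, taken across the 4746 genes whose mean reached 100, was 0.225 to 0.231 between replicates 2 and 3. It was 0.392 to 0.51 between replicate 1 and either of them. No label says whether replicates came from separate animals or cultures, so the p-values measure the spread between these samples, which may be technical. All 7 macrophage markers were measured, with a summed level of 9579 to 10638 normalised read counts in untreated cells, 11355 to 17755 after LPS and 11081 to 11459 after IL-4. Markers of T cells, B cells, NK cells, neutrophils, mast cells and red cells summed to at most 12 in any sample, and the 2 NK and 3 red cell markers were at 0 throughout. Dendritic cell markers summed to at most 21, and fibroblast markers to 28 to 179, highest in replicate 1 of each group. The 3 endothelial markers summed to 9 to 14 in untreated cells, 188 to 231 after LPS, through Kdr, and 91 to 150 after IL-4, through Pecam1. The third, Cdh5, was at most 5 in any sample, and the part of these cells in the results was not tested. In a bulk sample, fewer cells of a type and less RNA per cell cannot be told apart.

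LPS, a component of the outer membrane of Gram-negative bacteria, is sensed by the receptor TLR4 with its partners CD14 and MD-2. The adaptors MyD88 and TRIF carry the signal to NF-κB and MAP kinases and to IRF3, and the interferon that the cells then release turns on a later set of genes through STAT2 and IRF9, among other factors. IL-4 binds a receptor built from IL-4Rα and a partner chain, and JAK kinases then phosphorylate STAT6, which turns on genes of alternative activation such as Retnla, Arg1 and Mrc1. The responses are classically described as opposed, and factors such as the IRF family, the NF-κB inhibitors and the SOCS proteins act at the points where they meet.

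Short promoter stretches show the letters these factors are known to read in genes that carry the comparison. Each line gives a gene, the motif, the position in GRCm38.p6 and the sequence of the gene's own strand, 5′ to 3′, from RefSeq promoters that run from 250 bases before to 50 after a start site, with the match in capitals. The motifs were searched on both strands as GAAANNGAAA for the interferon-stimulated response element (ISRE), TTCNNNNGAA for a STAT6 site and GGGANNTTCC for an NF-κB site (kB).
Ifi206, ISRE, chr1:173491339-173491368, minus strand: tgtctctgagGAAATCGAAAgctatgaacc
Phf11a, ISRE, chr14:59297532-59297561, minus strand: cacatttagaGAAAAAGAAActagaaccta
Pilra, ISRE, chr5:137836437-137836466, minus strand: agccacttagGAAATGGAAAacagtagata
Gm5150, ISRE, chr3:16006553-16006582, minus strand: agggtcaaaaGAAAGAGAAAagataatgtt
Rsad2, ISRE, chr12:26456553-26456582, minus strand: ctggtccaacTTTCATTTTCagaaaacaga
Cxcl10, ISRE, chr5:92349083-92349112, minus strand: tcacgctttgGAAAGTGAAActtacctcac
Cxcl10, kB site, chr5:92349029-92349058, minus strand: agaggggagaGGGAAATTCCaagttcatgg
Il6, kB site, chr5:30013060-30013089, plus strand: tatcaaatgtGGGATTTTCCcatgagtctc
Enthd1, kB site, chr15:80560669-80560698, minus strand: agtcttgtgaGGGATTTTCCcgtgtttatc
Retnla, STAT6 site, chr16:48842454-48842483, plus strand: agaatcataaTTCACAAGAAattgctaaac
Pdcd1lg2, STAT6 site, chr19:29410827-29410856, plus strand: catgctccagTTCCTCAGAAaccattctgg
Clec7a, STAT6 site, chr6:129472891-129472920, minus strand: catttcagttTTCTTCAGAAgttacagcct
Ifi206, STAT6 site, chr1:173491515-173491544, minus strand: ttcaccttcaTTCAAAGGAAtgaaggttcc
The first 4 are genes that LPS raised and IL-4 lowered, Rsad2, Cxcl10 and Il6 are among the genes highest after LPS over IL-4, and Retnla, Pdcd1lg2, Clec7a and Enthd1 were higher after IL-4. Enthd1 is shown because it holds the κB letters although LPS lowered it, and the last line because Ifi206 holds the STAT6 letters although IL-4 lowered it. STAT6 letters also stood in the promoters of Ifi205, Hk3 and Tnfaip3, which were higher after LPS.

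A promoter was found for 384 of the 499 genes that LPS raised and IL-4 lowered, for 335 of the 417 genes moved the other way, and for 9476 of the 12096 genes tested. A gene was counted when any of its promoters held the letters. The ISRE letters stood in 10.4% of the first set, in 2.09% of the second, in 4.18% of the genes tested and in 3.99% of all 27025 genes with a promoter. STAT6 letters were in 8.85%, 9.55%, 6.88% and 8.01% of the same sets. κB letters were in 2.34%, 2.39%, 1.88% and 1.63%. The share with the ISRE thus differed most between the sets, and these shares are a description of the letters, without a test, and say nothing of binding.

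The first question was how far the transcription programmes differ at 4 h. LPS and IL-4 separated 8610 of the 12096 genes (71.2%) at an adjusted p of 0.05, with 3431 higher after LPS (28.4%) and 5179 higher after IL-4 (42.8%). The LPS and IL-4 replicates did not overlap for 72.9% of the genes. Genes higher after LPS were fewer as deposited, but 811 of them and 715 of the genes higher after IL-4 differed by at least 3 on the log2 scale. Against untreated cells, LPS raised 29.7% and lowered 39.5% of the genes, whereas IL-4 raised 11.5% and lowered 11.1%. The split by direction depended on scaling: 39.8% of the calls were higher after LPS as deposited, 49.7% after median-of-ratios rescaling, 23.8% after rescaling to equal totals and 47.8% among genes with a mean of at least 50. The median log2 difference of all genes was −0.32 as deposited and shifted to −0.04 under median-of-ratios and −0.92 under equal totals, and each difference given here is to be read against that median. The filter itself let in 590 genes through the LPS samples alone and 1131 through the IL-4 samples alone, and these had to differ.

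**Figure D1:**
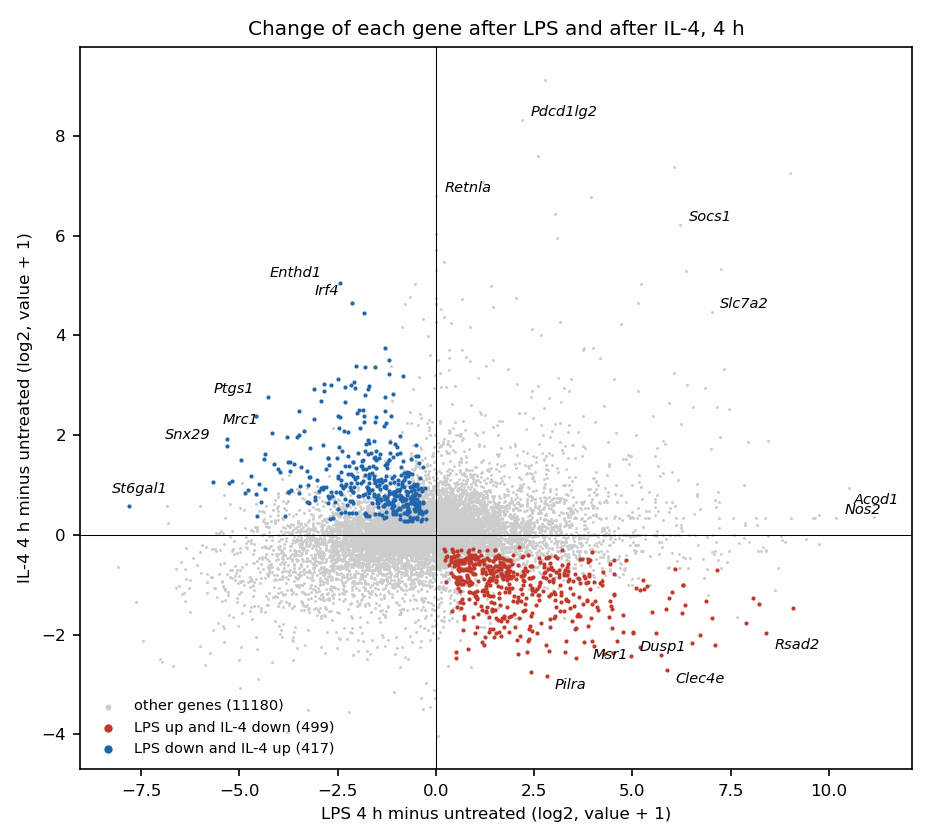
Each point is 1 of the 12096 genes, placed by its change against untreated after LPS (horizontal axis) and after IL-4 (vertical axis), both at 4 h and on the log2(value + 1) scale; red points are the 499 genes called LPS up and IL-4 down and blue points the 417 called LPS down and IL-4 up. The cloud is wider along the LPS axis, and a group that includes Socs1, Slc7a2 and Pdcd1lg2 lies in the upper right, raised by both stimuli.

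The genes furthest above their IL-4 level after LPS were effectors of host defence. Acod1 (chromosome 14, 103047012 to 103056573), which makes itaconate from a citric acid cycle intermediate, had 5, 6 and 2 normalised read counts in untreated cells, 11256, 11459 and 11619 after LPS and 6, 18 and 1 after IL-4. It overlaps Gm41235, and with strand use in counting not stated the reads of overlapping genes cannot be separated. The difference was 10.80 (SE 0.52, adjusted p 5.42e-15) on the log2(value + 1) scale, the largest in this direction among protein-coding genes. Nos2 (chromosome 11, 78920787 to 78960226), the inducible nitric oxide synthase, had 1820, 2232 and 2357 after LPS and 0, 5 and 1 after IL-4, or 9.86 (SE 0.58, adjusted p 2.53e-13) apart. Rsad2 (chromosome 12, 26442743 to 26456452), the antiviral enzyme viperin, had 28, 34 and 48 untreated, 11227, 13258 and 13063 after LPS and 6, 23 and 4 after IL-4. For each of these genes the lowest LPS replicate was far above every IL-4 and untreated replicate. Ptgs2, the inducible cyclooxygenase, had 1273, 2865 and 2772 after LPS and 5, 5 and 0 after IL-4, with replicate 1 the lowest LPS sample. The other genes of the leading 10 were Ifi205 (10.56), Ccl5 (10.35), Oasl1 (9.73), Cmpk2 (9.66), Cd69 (9.61) and Cxcl10 (9.37), all with non-overlapping replicates by the rule that named them. Ccl5 overlaps Gm32650 and Cxcl10 overlaps Art3. Nos2, Ptgs2, Ifi205, Ccl5, Oasl1, Cd69 and Cxcl10 passed the filter through the LPS samples alone, so their direction is no result. Rsad2, Ifi205, Cmpk2 and Cd69 also fell below untreated after IL-4, by 1.96, 1.46, 1.77 and 1.39; these falls start from low levels, such as 1, 2 and 5 for Cd69, and did not pass without replicate 3.

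The genes furthest above their LPS level after IL-4 fell into those that LPS shut down and those that IL-4 switched on. St6gal1 (chromosome 16, 23224740 to 23360350), which adds sialic acid to glycoproteins, had 1480, 1199 and 1257 untreated, 6, 6 and 3 after LPS and 2024, 1754 and 2105 after IL-4. This was the largest difference in this direction among protein-coding genes at −8.40 (SE 0.17, adjusted p 2.02e-21). Its rise after IL-4 was 0.58 (SE 0.17, adjusted p 0.0139), so nearly all of the difference came from the LPS arm. Slco2b1, an organic anion transporter, went from 419, 309 and 306 to 1, 0 and 0 after LPS and stood at 261, 188 and 213 after IL-4. Lpin1, a phosphatidate phosphatase, went from 174, 127 and 137 to 1, 0 and 0 after LPS, with 260, 207 and 185 after IL-4. Slc26a11, an anion transporter, went from 590, 389 and 377 to 4, 3 and 2, with 532, 536 and 501 after IL-4. None of these 3 passed the test against untreated after IL-4. Retnla (chromosome 16, 48842609 to 48844461), the secreted alternative activation marker RELMα, was the reverse case. It was listed at 0 in all untreated and LPS replicates and at 74, 140 and 129 after IL-4, at least 38.1-fold above a floor of 3 per sample. Snx29, a sorting nexin, combined both movements, with 4161, 2861 and 3035 untreated, 106, 72 and 73 after LPS and 14379, 11371 and 12259 after IL-4. Irf4 (chromosome 13, 30749233 to 30766981), a transcription factor of alternative activation, had 21, 16 and 10 untreated, 7, 2 and 1 after LPS and 361, 426 and 411 after IL-4, a difference of −6.78 (SE 0.36, adjusted p 3.44e-14). The leading 10 also held Ptgs1 (−7.03), Uck2 (−6.96) and Enthd1 (−7.48), described with the opposed genes. St6gal1, Slco2b1, Snx29, Uck2 and Enthd1 overlap another annotated gene. All of the leading 10 but Snx29 passed the filter through the IL-4 samples alone, so their direction is no result.

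The second question was which genes the stimuli moved in opposite directions. A gene was counted as opposed when LPS against untreated, IL-4 against untreated and LPS against IL-4 each passed 0.05 and the changes against untreated had opposite signs. LPS raised and IL-4 lowered 499 genes (4.13%), of which 410 are protein-coding, and LPS lowered and IL-4 raised 417 genes (3.45%), of which 347 are protein-coding. Both changes use the same untreated samples, whose error pushes them the same way and not apart. In 464 of the 499 and 385 of the 417 genes the replicates of the 3 groups did not overlap, and in 194 and 158 both changes were at least 1 on the log2 scale. These genes had already passed all 3 contrasts on the same samples, and the share without overlap over all genes is not given. The counts without overlap are thus a description and no further support. The median change of the first set was 1.81 after LPS and −0.92 after IL-4, and that of the second −1.44 and 0.96, so in both sets the LPS arm was the longer. The counts rested on the replicates: without replicate 1 they were 693 and 532, without replicate 2 256 and 192, without replicate 3 237 and 178, and with replicates 2 and 3 averaged into 1 sample per group 276 and 213. Over 8 alternatives, covering the pseudocount, both scalings, the replicate block, each replicate left out and the averaging, 162 of the 499 and 140 of the 417 genes were opposed in every one. Which kind was the more numerous depended on scaling and pseudocount. In the order given above the counts were 595 and 305 after median-of-ratios rescaling, 374 and 709 at equal totals and 472 and 510 with a pseudocount of 8. Median gene length was 37.5 and 35.3 kb in the opposed sets, beside 24.7 kb for all genes called higher after LPS, 27.01 kb for those called higher after IL-4, 17.1 kb for genes not called and 23.2 kb for all genes tested.

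**Figure D2:**
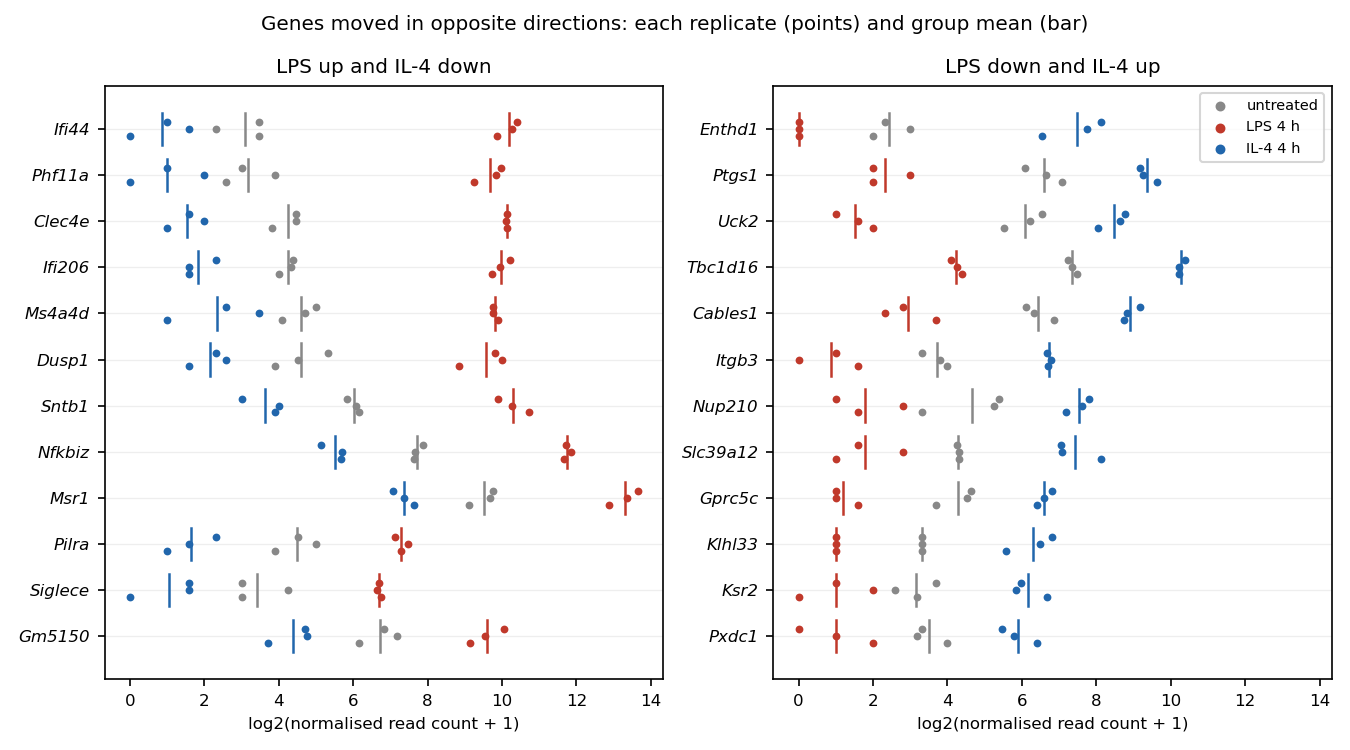
Normalised read counts on a log2(value + 1) axis for the 12 named genes of each kind, with 1 point per replicate and a bar at the group mean for untreated (grey), LPS 4 h (red) and IL-4 4 h (blue). By the rule that named the 24 genes, the untreated replicates lie between the LPS and the IL-4 replicates, with no overlap.

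Among the 12 named genes that LPS raised and IL-4 lowered, several were surface receptors of innate cells. Clec4e (chromosome 6, 123281789 to 123289871), the C-type lectin Mincle that senses mycobacterial glycolipid, had 13, 21 and 21 normalised read counts in untreated cells, 1130, 1095 and 1116 after LPS and 1, 3 and 2 after IL-4. The changes were 5.88 (SE 0.27, adjusted p 2.47e-15) after LPS and −2.71 (SE 0.27, adjusted p 4.31e-08) after IL-4. Pilra (chromosome 5, 137821952 to 137836278), an inhibitory immunoglobulin-like receptor, had 14, 31 and 22 untreated, 156, 177 and 138 after LPS and 1, 2 and 4 after IL-4. It was the most evenly opposed of the 12, with changes of 2.82 after LPS and −2.84 after IL-4. It overlaps Zcwpw1, and its neighbour in function Pilrb1 had 4, 9 and 10, 37, 35 and 34 and 1, 1 and 1 in the same order. Siglece (chromosome 7, 43651070 to 43660161), a receptor for sialic acid that restrains activation, had 7, 18 and 7 untreated, 107, 99 and 103 after LPS and 0, 2 and 2 after IL-4. Msr1 (chromosome 8, 39581700 to 39642678), the class A scavenger receptor that takes up modified lipoprotein and bacteria, moved between far higher levels, with 551, 810 and 865 untreated, 7538, 10459 and 12781 after LPS and 197, 163 and 134 after IL-4. Its changes were 3.78 (SE 0.36, adjusted p 1.82e-09) and −2.16 (SE 0.36, adjusted p 7.62e-05). Ms4a4d, a four-transmembrane protein of the MS4A family, changed by 5.20 after LPS and −2.25 after IL-4, and Gm5150 by 2.87 after LPS and −2.33 after IL-4. Clec4e, Siglece, Msr1 and Gm5150 were opposed in all 22 alternatives, whereas Ms4a4d was lost without replicate 3. Clec4e, Pilra and Siglece passed the filter through the LPS samples alone, which fixed that LPS lay above IL-4.

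Dusp1 and Nfkbiz act on signalling inside the cell. Dusp1 (chromosome 17, 26505591 to 26508472), the nuclear phosphatase that switches off MAP kinases, had 14, 22 and 39 untreated, 461, 1025 and 899 after LPS and 2, 5 and 4 after IL-4. These are changes of 4.97 (SE 0.37, adjusted p 1.60e-11) and −2.42 (SE 0.37, adjusted p 2.05e-05). Nfkbiz (chromosome 16, 55811377 to 55838641), the nuclear IκB protein that NF-κB needs for a set of secondary genes, had 199, 202 and 233, 3243, 3694 and 3373 and 50, 51 and 34 in the same order. It changed by 4.02 (SE 0.17, adjusted p 4.14e-16) and −2.23 (SE 0.17, adjusted p 4.56e-10). Ifi206, Ifi44 and Phf11a are interferon-inducible. Ifi206 (chromosome 1, 173468485 to 173491318), of the PYHIN family of DNA sensors, had 15, 19 and 20, 842, 992 and 1185 and 2, 2 and 4 in that order. Ifi44 had 10, 4 and 10, 931, 1223 and 1362 and 0, 2 and 1, and Phf11a had 5, 14 and 7, 607, 914 and 1001 and 0, 3 and 1. After IL-4 each of these 3 was at most 4 normalised read counts in any replicate, a level where the size of the fall depends on the pseudocount of 1. Sntb1, an adaptor of the dystrophin complex, completed the 12 with 4.28 after LPS and −2.38 after IL-4. Dusp1, Ifi206, Ifi44 and Phf11a passed the filter through the LPS samples alone, which fixed that LPS lay above IL-4.

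The 12 named genes that LPS lowered and IL-4 raised included genes of lipid mediator synthesis, adhesion, vesicle traffic and nucleotide salvage. Ptgs1 (chromosome 2, 36230426 to 36252272), the constitutive cyclooxygenase, had 134, 99 and 67 untreated, 3, 7 and 3 after LPS and 795, 616 and 580 after IL-4. Its changes were −4.27 (SE 0.29, adjusted p 4.60e-12) and 2.76 (SE 0.29, adjusted p 1.27e-07). The inducible enzyme for the same reaction, Ptgs2, went the other way, and Tbxas1, which turns their product into thromboxane, changed by −1.78 after LPS and 1.33 after IL-4. Itgb3 (chromosome 11, 104608000 to 104670473), the integrin β3 chain, had 15, 13 and 9, 2, 0 and 1 and 103, 110 and 102 in untreated, LPS and IL-4 cells. Uck2 (chromosome 1, 167226083 to 167285127), a pyrimidine salvage kinase, had 45, 73 and 93, 3, 2 and 1 and 261, 399 and 438 in the same order. Tbc1d16 (chromosome 11, 119143043 to 119228499), which switches off Rab GTPases, had 178, 161 and 151, 20, 18 and 16 and 1199, 1191 and 1343. The gene changed by −3.11 (SE 0.19, adjusted p 4.49e-13) and 2.92 (SE 0.19, adjusted p 3.49e-11). Enthd1 (chromosome 15, 80452240 to 80560470) was at 0 in all LPS replicates, 3, 7 and 4 in untreated and 93, 214 and 281 in IL-4 cells, at least 65.3-fold higher after IL-4 than the floor of 3. Cables1, a CDK-binding adaptor, changed by −3.49 after LPS and 2.48 after IL-4, and Nup210, a nuclear pore membrane protein, by −2.86 after LPS and 2.88 after IL-4. Slc39a12, a zinc transporter, changed by −2.50 after LPS and 3.12 after IL-4, and Ksr2, a scaffold of the Raf–MEK–ERK cascade, by −2.15 after LPS and 3.01 after IL-4. Gprc5c, Klhl33 and Pxdc1 changed by −3.09, −2.32 and −2.50 after LPS and by 2.32, 2.97 and 2.39 after IL-4, from untreated levels of at most 24 normalised read counts. Tbc1d16, Uck2, Enthd1, Cables1 and Ksr2 overlap another annotated gene, and the fall of Enthd1 after LPS did not pass with a pseudocount of 8. All of the 12 but Tbc1d16 and Cables1 passed the filter through the IL-4 samples alone, which fixed that IL-4 lay above LPS.

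Opposed genes lay side by side in several gene families. Where at least 3 protein-coding genes of 1 kind followed each other within 200 kb, the region was listed, which gave 16 regions, 13 of genes that LPS raised and IL-4 lowered. The largest was the PYHIN cluster of cytosolic DNA sensors (chromosome 1, 173420604 to 174031755), with 9 protein-coding opposed genes, Aim2, Ifi203 to Ifi206, Ifi208, Ifi209, Ifi211 and Ifi213, and all 12 protein-coding genes tested there were higher after LPS. Ifi209 had 48, 53 and 72 untreated, 2630, 4035 and 4991 after LPS and 25, 28 and 23 after IL-4. The MS4A genes Ms4a4b, Ms4a4c, Ms4a4d and Ms4a6b (chromosome 19, 11407661 to 11558466), the Phf11 genes (chromosome 14, 59238767 to 59548904) and the Ifit genes (chromosome 19, 34550694 to 34650009) were other family clusters. All 6, 7 and 3 protein-coding genes tested in them were higher after LPS, as were 28.4% of all genes. However, 4, 4 and 3 of them, like 9 of the 12 above, are the opposed genes that made the region. Their direction was therefore fixed. In a region of chromosome 11 (82803819 to 83215154) with Slfn3, 8 of 11 were higher after LPS and 2 after IL-4. A region of chromosome 12 (26306794 to 26479837) held Rnf144a beside Rsad2 and Cmpk2, and one of chromosome 6 (129267324 to 129385874) held Cd69, Clec12a and Clec12b. Members of these families are near-identical in places, and the authors dropped reads with several hits, so the share of reads that each member kept is uncertain.

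Other opposed genes can be grouped by what they are known to do, and those below were chosen after their values were seen, so they stand as single genes and not for their families. Tlr2, a receptor for bacterial lipoproteins, had 60, 58 and 57 untreated, 118, 190 and 154 after LPS and 10, 20 and 15 after IL-4. Nod2, which senses bacterial muramyl dipeptide, had 59, 67 and 74, 1210, 1152 and 970 and 17, 31 and 32. The inflammasome genes Nlrp3 and Casp4 changed by 2.90 after LPS and −0.57 after IL-4 and by 4.25 after LPS and −0.74 after IL-4. Tlr4, the receptor for LPS itself, was not opposed: it changed by −1.53 after LPS, and its change of 0.33 after IL-4 did not pass. The kinase genes Lyn and Ptk2b changed by 1.85 after LPS and −1.14 after IL-4 and by 2.16 after LPS and −1.09 after IL-4. The integrin genes Itga4 and Itgal changed by 2.03 after LPS and −1.84 after IL-4 and by 3.07 after LPS and −1.45 after IL-4, whereas Itgb3 was opposed the other way. Il10, the anti-inflammatory cytokine, had 7, 4 and 11 untreated, 114, 126 and 167 after LPS and 1, 2 and 3 after IL-4, so it stood with the LPS genes. In the other direction stood Igf1, a growth factor, with 2149, 1237 and 1418 untreated, 147, 109 and 164 after LPS and 7060, 5266 and 6485 after IL-4. Tfrc, the transferrin receptor, had 47, 27 and 29, 10, 11 and 6 and 355, 189 and 206. The nuclear receptor genes Ahr and Rara changed by −2.51 after LPS and 1.55 after IL-4 and by −2.50 after LPS and 1.18 after IL-4, and Ern1, the stress sensor of the endoplasmic reticulum, by −2.20 after LPS and 1.37 after IL-4. Il6st, the shared signal chain of the IL-6 receptor family, fell by 1.37 after LPS and rose by 1.06 after IL-4, while the cytokine Il6 itself rose after LPS.

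The opposed genes were chosen at 4 h, and the difference between LPS and IL-4 at 0.5, 1 and 2 h comes from other samples. Those samples are not independent of the choice, since all 27 share 1 estimate of the spread and same-numbered samples deviated together, so the counts are a description. Of the 499 genes that LPS raised and IL-4 lowered, 295, 393 and 478 were also higher after LPS than after IL-4 at these times, where 18.5%, 25.0% and 28.2% of all genes tested were, and 49, 40 and 3 were lower. Of the 417 genes of the other kind, 248, 343 and 407 were higher after IL-4, against 38.6%, 42.8% and 43.8% of all genes, and 31, 18 and 1 were higher after LPS. The median difference of the first set grew from 0.66 at 0.5 h to 1.73 at 1 h and 2.63 at 2 h, beside 2.92 at 4 h, and that of the second from −0.74 to −1.50 and −2.44, beside −2.60. The median of all genes stayed between −0.27 and −0.33 over these times. The LPS and IL-4 arms did not open at the same pace: at 0.5 h the median change of the first set was 0.62 after LPS and −0.11 after IL-4, and by 2 h it was 1.81 and −0.79. Being opposed to untreated in both arms was itself called in 48, 120 and 297 of the 499 genes and in 54, 123 and 256 of the 417 at 0.5, 1 and 2 h. The changes against untreated share the untreated samples that entered the choice.

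**Figure D3:**
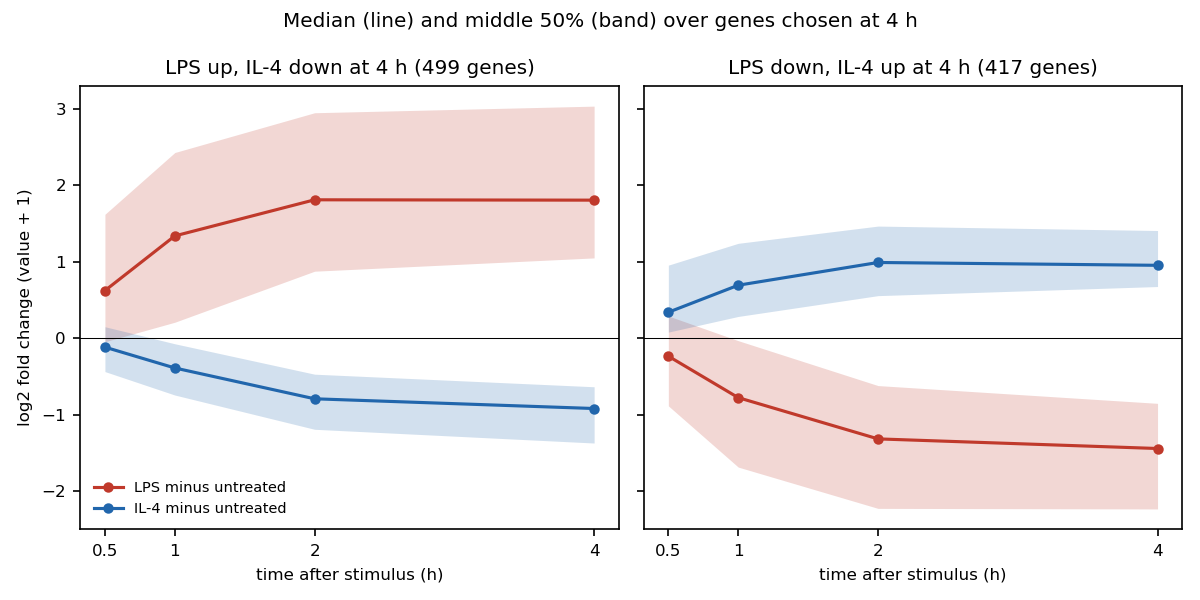
Median (line) and middle 50% (band) of the log2 fold change against untreated by time after stimulus in h, for the 499 genes called LPS up and IL-4 down at 4 h (left) and the 417 called LPS down and IL-4 up (right); LPS is red and IL-4 blue. The lines part from 0.5 h on and are close to their 4 h distance by 2 h.

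Some genes changed their order between 0.5 and 4 h. Itgam, the integrin αM chain, was lower after LPS than after IL-4 at 0.5 h, by −1.05 (SE 0.14, adjusted p 1.06e-06), and higher at 4 h, by 2.40 (SE 0.14, adjusted p 3.08e-13). At 4 h it had 679, 741 and 754 untreated, 1228, 1253 and 1067 after LPS and 239, 211 and 220 after IL-4, and its rise after LPS (0.70) did not pass at equal totals. Fcgr1, the high-affinity IgG receptor, moved from −1.65 at 0.5 h to 4.65 at 4 h, and Il4ra, which is not opposed since both stimuli raised it at 4 h, from −1.50 to 1.95. Csf1r, the receptor for the growth factor that keeps macrophages alive, crossed the other way, from 0.53 (SE 0.12, adjusted p 0.000811) at 0.5 h to −2.17 (SE 0.12, adjusted p 1.44e-13) at 4 h. It had 2052, 1814 and 2048 untreated, 522, 627 and 566 after LPS and 2264, 2788 and 2699 after IL-4; its rise after IL-4, 0.39 (SE 0.12, adjusted p 0.0254), was lost when replicate 2 or 3 was left out. Irf4 and Mrc1 were higher after IL-4 at all 4 times. Against untreated, LPS changed Irf4 by 0.91, 1.63, −1.43 and −2.14 at the successive times, and Mrc1 by 0.30, −1.99, −2.37 and −4.16.

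**Figure D4:**
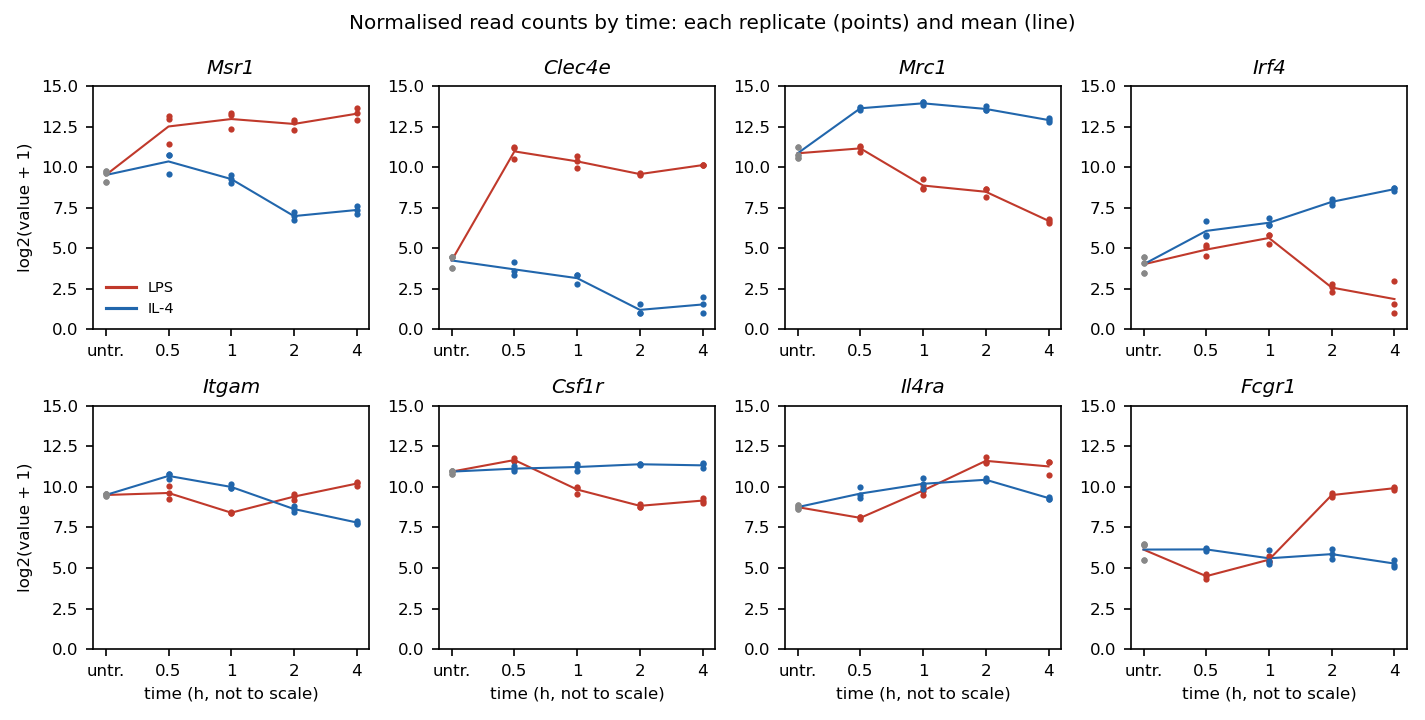
Normalised read counts on a log2(value + 1) axis for 8 genes in untreated cells and over the LPS (red) and IL-4 (blue) courses, with 1 point per replicate and a line through the means; the time axis is not to scale. Msr1, Clec4e, Mrc1 and Irf4 part early and keep their order, whereas the lines of Itgam, Csf1r, Il4ra and Fcgr1 cross.

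Gene lists written from general knowledge show how known programmes were divided, read against 28.4% of all genes called higher after LPS and 42.8% higher after IL-4. Members that passed the filter on low values through the samples of 1 stimulus alone had to differ, so their direction is no result. Of 20 inflammatory cytokines listed, 14 were tested and were higher after LPS, but 9 of them had passed through the LPS samples alone. The other 5, Csf1, Ebi3, Il15, Il18 and Tnf, had a median difference of 4.99, beside −0.32 for all genes. Of 23 chemokines, 15 were tested, 9 of them through the LPS samples alone, and of the other 6 all but Ccl6 (−0.14) were higher after LPS, with a median of 3.79. Il6 (chromosome 5, 30013114 to 30019975) had 0, 1 and 0 untreated, 401, 398 and 366 after LPS and 0 in every IL-4 replicate, at least 129-fold above the floor of 3. Il1b had 1647, 1525 and 1241 after LPS and 8, 7 and 1 after IL-4, and overlaps its antisense gene. The cytokines Il10, Il15, Il18 and Tnfsf9 were opposed, and among chemokines Cxcl16, with 1.80 after LPS and −1.73 after IL-4. Ccl22, often used as a marker of IL-4, had 0 in every untreated replicate, 58, 85 and 64 after LPS and 1, 0 and 0 after IL-4. It is among the 9 chemokines let in by the LPS samples alone, so its direction between the stimuli is no result. Ccl17 and Ccl24, the other IL-4 chemokines listed, were below the filter. Of 17 NF-κB subunits and feedback inhibitors, 16 were higher after LPS, with a median of 2.94, led by Traf1 (8.70) and Tnfaip3 (6.39); the deubiquitinase Cyld (0.07) did not pass.

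Interferon-stimulated genes lay on the LPS side throughout. All 35 tested were higher after LPS, and the lowest was Psmb9 at 2.60. Without 6 that passed the filter through the LPS samples alone, the median difference of the other 29 was 4.85. IL-4 raised none of the 35 and lowered 16 at 0.05: Ifit1, Ifit2, Rsad2, Mx1, Mx2, Oas3, Oasl2, Ddx58, Dhx58, Ifi44, Gbp2, Gbp3, Cmpk2, Trim30a, Ifi204 and Ifi205, beside 11.1% of all genes. Mx2, an antiviral GTPase, had 101, 91 and 141 untreated, 12582, 13260 and 12981 after LPS and 38, 48 and 43 after IL-4, and Ifit2 had 19, 21 and 26, 2702, 2331 and 2275 and 5, 4 and 5. In both genes every IL-4 replicate lay below every untreated one. The count of 16 rested on the replicates: it was 10 without replicate 2, 5 without replicate 3 and 9 with replicates 2 and 3 averaged, and Ifit1, Ifit2, Mx2, Oasl2 and Ifi44 were the 5 opposed in each of the 8 alternatives above. With the replicate block IL-4 lowered 19 and raised Ifi47. Ifi47 was also raised without replicate 1 and without the IL-4 sample of replicate 1. A fit of the LPS 4 h, IL-4 4 h and untreated samples only had Ifi47 and Psmb9 raised. Without the untreated sample of replicate 3 Zbp1 was raised. In the fit of all 27 samples without a block, other listed genes did not pass after IL-4, such as Isg15 (0.33), Gbp5 (−0.02) and Ifi47 (0.72). The fall was thus not uniform across the list.

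Of 26 alternative activation genes tested, 19 were higher after IL-4, 4 were higher after LPS and 3 did not pass. Of these, 11 had passed the filter through the IL-4 samples alone and 2 through the LPS samples alone; among the other 13, 8 were higher after IL-4 and 2 after LPS, with a median of −1.23. Mrc1 (chromosome 2, 14229414 to 14332023), the mannose receptor, had 2386, 1541 and 1708 untreated, 112, 103 and 92 after LPS and 8200, 7113 and 7664 after IL-4, a difference of −6.21 (SE 0.16, adjusted p 1.47e-19); it overlaps Mir511. Together with Irf4, Clec10a, Clec7a, Ptgs1 and Matk it was opposed, and Clec7a, the β-glucan receptor Dectin-1, had 127, 153 and 144, 13, 25 and 46 and 525, 700 and 654. Arg1 (chromosome 10, 24915207 to 24927470), arginase, had 6, 7 and 15 untreated, 9, 7 and 7 after LPS and 37, 61 and 85 after IL-4. It differed by −2.77 (SE 0.43, adjusted p 4.65e-06), and its change after LPS did not pass (−0.16, adjusted p 0.754). Arg1, Egr2, Klf4 and Pdcd1lg2 are among the 11 let in by the IL-4 samples alone, so their direction against LPS is no result. Pparg went from 986, 742 and 689 to 96, 91 and 103 after LPS and stood at 1305, 786 and 807 after IL-4, so its difference of −3.27 came from the LPS arm, its change after IL-4 being 0.24 (adjusted p 0.469). Egr2 (−3.74) and Klf4 (−2.71), transcription factors induced early by many stimuli, were raised by IL-4, by 3.60 and 2.96, and did not pass against untreated after LPS at 4 h (−0.14 and 0.25). The listed genes higher after LPS were Ccl22, Tgm2 (0.99), Ch25h (4.25) and Slc7a2, the cationic amino acid transporter that brings arginine to both Nos2 and Arg1. Ccl22 and Ch25h are the 2 let in by the LPS samples alone, so their direction against IL-4 is no result. Slc7a2 had 12, 14 and 11 untreated, 1794, 1714 and 1671 after LPS and 271, 285 and 319 after IL-4, with rises of 7.02 and 4.46. Pdcd1lg2, the second ligand of the checkpoint receptor PD-1, had 7, 7 and 8 after LPS and 491, 570 and 686 after IL-4, while its neighbour in function Cd274 was higher after LPS (3.40). Myc had 6, 14 and 9 untreated, 12, 25 and 26 after LPS and 49, 38 and 34 after IL-4, a difference of −0.97 (SE 0.32, adjusted p 0.00917). That call was lost without replicate 1 (−0.48) and without its LPS sample (−0.63).

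Components of either receptor pathway were not confined to their own stimulus. Of 15 genes of the IL-4 receptor pathway, 10 were higher after LPS, 4 were higher after IL-4 and 1 did not pass, with a median of 1.05. Il4ra (chromosome 7, 125552271 to 125579474), the receptor chain that binds IL-4, had 427, 397 and 471 untreated, 1695, 2941 and 2982 after LPS and 612, 618 and 676 after IL-4, a difference of 1.95 (SE 0.19, adjusted p 3.79e-09). Il13ra1, a partner chain, had 59, 47 and 44, 250, 270 and 259 and 14, 10 and 9 and was opposed, with 2.36 after LPS and −2.10 after IL-4, in all 21 alternatives it could be tested in. Il2rg, the other partner chain, differed by 3.12 and Jak2 by 3.49. Stat6, the transcription factor of the pathway, went against its receptor, with 209, 245 and 225 untreated, 86, 119 and 92 after LPS and 180, 221 and 203 after IL-4, a difference of −1.03 (SE 0.14, adjusted p 4.97e-07). Of the feedback inhibitors, Cish was higher after IL-4 (−3.42). Socs3 (6.88) had passed the filter through the LPS samples alone and Socs2 (−3.44) through the IL-4 samples alone, so their direction is no result. Among the other 13 genes of the list, 9 were higher after LPS and 3 after IL-4. Socs1 had 97, 170 and 147 after LPS and 91, 168 and 157 after IL-4 from 0, 2 and 1 untreated. Its difference was 0.00 (SE 0.41, adjusted p 0.992) with a 95% interval of −0.85 to 0.86. Irs2, an adaptor of the IL-4 receptor, was opposed at −1.73 after LPS and 0.88 after IL-4, but in 10 of 21 alternatives only.

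Of 28 genes of the TLR4 pathway, 15 were higher after LPS and 10 after IL-4, with a median of 0.52 that became −0.09 at equal totals. The receptor Tlr4 (chromosome 4, 66827551 to 66846581) had 304, 356 and 388 untreated, 89, 141 and 136 after LPS and 362, 459 and 504 after IL-4, −1.86 (SE 0.25, adjusted p 5.17e-07) apart. The change of Tlr4 after IL-4, 0.33, did not pass. Its co-receptor Cd14 had 22, 22 and 30, 173, 249 and 159 and 3, 10 and 10, a difference of 4.60 (SE 0.28, adjusted p 4.99e-13). Cd14 was opposed in all 22 alternatives, and so was Irak2, a kinase-like adaptor, with 3.14 after LPS and −0.71 after IL-4. Irak3, an inhibitor of the same step, was opposed with 2.72 after LPS and −0.85 after IL-4 in all 21 it could be tested in. Peli1, Tab2, Tbk1 and Tank were opposed as well, with changes after IL-4 of −0.76, −0.51, −0.41 and −0.30, each lost without replicate 2 or replicate 3. Genes higher after IL-4 included Tab1 (−1.78) and Irak4 (−1.48), both lowered by LPS. Without replicate 2 this group counted 5 genes, without replicate 3 6, without the IL-4 sample of replicate 2 6, and after median-of-ratios rescaling 4. Of 15 IRF and STAT genes, 11 were higher after LPS and 3, Irf3, Irf4 and Stat6, after IL-4. Stat4 had passed the filter through the LPS samples alone and Irf4 through the IL-4 samples alone, so their direction is no result. Among the other 13, 10 were higher after LPS and 2 after IL-4. Irf7 differed by 4.02 although IL-4 raised it too (1.82), and Irf1 by 2.26. Stat4 did not pass against untreated after LPS (0.31) and fell by 2.62 after IL-4.

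Genes of macrophage identity were split. Of 19 lineage genes, 9 were higher after LPS, 4 were higher after IL-4 and 6 did not pass, with a median of 0.45 that became −0.17 at equal totals, where the counts were 4 and 7. Fcgr1 had 87, 45 and 85 untreated, 915, 960 and 1038 after LPS and 45, 33 and 36 after IL-4, and Spi1, the master factor of myeloid cells, differed by 1.62. Those higher after IL-4 included Csf1r (−2.17), Cebpa (−3.81) and Runx1 (−1.01). Cebpa had passed the filter through the IL-4 samples alone, so its direction is no result. Mertk, with 2269, 1191 and 1345 after LPS and 1627, 1401 and 1420 after IL-4, did not pass (0.06, 95% interval −0.37 to 0.48, adjusted p 0.818), and its replicates overlapped because the first LPS sample was the highest. Among 18 phagocytic and scavenger receptors, 7 were higher after LPS and 6 after IL-4, and single differences ran from −6.21 to 7.22. Marco (7.22) and Fcgr4 had passed the filter through the LPS samples alone, so their direction is no result. Among the other 16, 5 were higher after LPS and 6 after IL-4. The median over all 18, −0.09, had no stable sign. It became −0.71 at equal totals, where 10 genes were higher after IL-4, and 0.20 after median-of-ratios rescaling. It was 0.02 without the LPS sample of replicate 1, 0.07 without the IL-4 sample of replicate 1 and 1.82 without overlapping genes, where 6 genes were higher after LPS and 1 after IL-4. Marco, a scavenger receptor of bacteria, had 620, 149 and 141 after LPS, again highest in replicate 1, and 3, 0 and 0 after IL-4, while the haemoglobin scavenger Cd163 (−4.53) and the lipid receptor Trem2 (−3.35) were higher after IL-4. Of 14 antigen presentation and costimulation genes, 6 were higher after LPS, with Icosl (4.07) the furthest. Pdcd1lg2 and H2-DMb1 (−3.03) were higher after IL-4, both let in by the IL-4 samples alone, and 6 did not pass, the class II genes H2-Aa, H2-Ab1 and H2-Eb1 among them. Cd40, a costimulatory receptor raised by both stimuli, had 44, 27 and 43 untreated, 5984, 3975 and 3607 after LPS and 200, 361 and 350 after IL-4.

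Of the metabolic lists, glycolysis lay on the LPS side, under both other scalings as well. The citric acid cycle list lay only a little further towards IL-4 than all genes did. Its median was −0.58 as deposited, −0.30 under median-of-ratios and −1.20 at equal totals, beside −0.32, −0.04 and −0.92 for all genes. Of 19 glycolysis genes, 17 were higher after LPS, with a median of 1.43, and Gpi1 (−1.06) was the only one higher after IL-4. Pfkfb3, which makes the activator of phosphofructokinase, had 330, 234 and 249 untreated, 6145, 6298 and 6122 after LPS and 209, 185 and 171 after IL-4. Hk3, a hexokinase, had 157, 180 and 187, 1179, 953 and 1065 and 127, 147 and 145. Of 19 genes listed for the citric acid cycle, 12 were higher after IL-4 (63.2%, beside 42.8% of all genes). Acod1 and Cs were the 2 higher after LPS (10.5%, beside 28.4%), and 5 did not pass. Idh2 (chromosome 7, 80094846 to 80115350), mitochondrial isocitrate dehydrogenase, had 48, 48 and 57, 5, 3 and 2 and 74, 63 and 63. Idh2 had passed the filter through the IL-4 samples alone, so its direction is no result. Among the other 18 genes 11 were higher after IL-4, and of these Fh1 and Suclg2 differed by −2.85 and −2.21. LPS lowered 6 of the 19 at 0.05 and IL-4 raised 10, beside 39.5% and 11.5% of all genes. Cs, citrate synthase, differed by 0.57 (SE 0.16, adjusted p 0.00241), a call lost without replicate 2 (0.45) and replicate 3 (0.47) and that turned to −0.051 at equal totals. Of 21 sterol synthesis genes, 9 were higher after LPS and 2 after IL-4, Ebp (−2.58) and Dhcr7 (−2.42). Ebp had passed the filter through the IL-4 samples alone, so its direction is no result. The median of 0.35 became −0.21 at equal totals. Only 4 or 5 genes were higher after LPS without replicate 2, without replicate 3, without LPS sample 2, without LPS sample 3 or without IL-4 sample 1. LXR target and fatty acid genes were higher after IL-4 in 7 of 13 (53.8%, beside 42.8% of all genes), with a median of −0.82. Of these 7, 1 had passed the filter through the IL-4 samples alone. Without genes that overlap another gene, 2 were higher after IL-4 and 1 after LPS. The median was then −0.01, beside −0.34 for all genes in that fit. Fasn, fatty acid synthase, had 42, 47 and 42, 13, 38 and 26 and 84, 103 and 81. Nr1h3, the LXRα gene itself, was higher after LPS (2.84). Of 27 lysosome genes, 15 (55.6%) were higher after IL-4 and 8 (29.6%) after LPS, beside 42.8% and 28.4% of all genes. Their median of −0.44 was near the −0.32 of all genes. They ran from Atp6v0d2 (−4.77) and Tfeb, the transcription factor of lysosome genes (−3.34), to Lamp2 (2.22) and Ctsc (2.96).

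Cell cycle genes were called higher after IL-4 about as often as all genes were. Of 27 tested, 11 (40.7%, beside 42.8% of all genes) were higher after IL-4 and 3 after LPS, Ccnd2 (6.57), Cdk6 (3.21) and the inhibitor Cdkn1a (1.37), and the median was −1.55. Of the 11, 7 had passed the filter through the IL-4 samples alone, and among the other 20 genes 4 were higher after IL-4, with a median of −0.64. Cdk2 had 57, 94 and 97 untreated, 7, 10 and 12 after LPS and 72, 59 and 52 after IL-4. In Cdk1, the mitotic kinase, replicate 1 was the lowest of every group, with 33, 166 and 223 untreated, 1, 19 and 8 after LPS and 21, 76 and 119 after IL-4. The difference of −3.05 (SE 1.17, adjusted p 0.0234) was lost without replicate 2, without replicate 3 or without single LPS or IL-4 samples. In a fit blocked on the replicate number 17 genes of the list were higher after IL-4, and so were 17 without replicate 1. Most of these genes are low: among those with a mean of at least 50, 1 was higher after IL-4 and the median was 0.34. Among 12 genes for MAP kinase phosphatases and mRNA decay factors, 6 were higher after LPS and 3 after IL-4, 2 of each let in by 1 stimulus alone. Dusp1, Dusp16 and Spred1 were opposed, the last pair with 4.77 after LPS and −1.61 after IL-4 and 2.53 after LPS and −1.13 after IL-4, and Dusp2 had 151, 126 and 125 after LPS and 0, 1 and 0 after IL-4. Dusp4 (−3.59) went the other way, as did Zfp36l1 and Zfp36l2, which bind AU-rich mRNA for decay. Zfp36l1 had 187, 194 and 207 untreated, 8, 8 and 18 after LPS and 303, 333 and 325 after IL-4, and Zfp36l2 had 138, 113 and 139, 6, 4 and 3 and 115, 91 and 94. Their relative Zfp36 was higher after LPS (2.60).

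**Figure D5:**
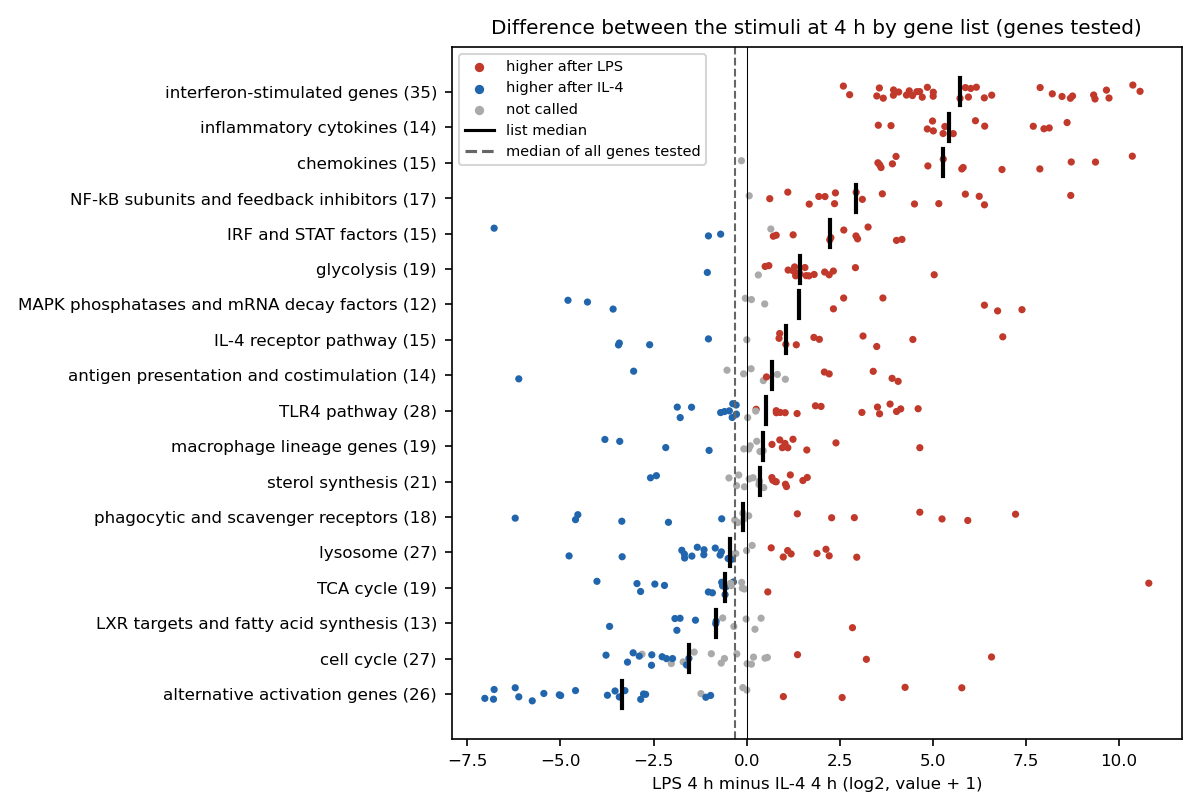
Difference between LPS 4 h and IL-4 4 h (log2, value + 1) for every tested gene of the 18 lists, 1 point per gene, red where higher after LPS, blue where higher after IL-4 and grey where not called; black bars are list medians and the dashed line is the median of all genes, −0.32. Interferon-stimulated genes, cytokines and chemokines lie to the right and alternative activation genes to the left, with Ccl22, Ch25h, Slc7a2 and Tgm2 as the points right of 0 in that list.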

How the data were processed

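Chromatin-associated RNA of 27 BMDM samples was sequenced by the authors on a Smart-seq2 protocol primed with random hexamers, as single-end reads. Reads were trimmed of adapters and aligned to mm10 with TopHat2 2.1.1, reads with several hits or in blacklisted regions were removed (bedtools 2.29.2), and reads were counted per RefSeq gene in R 3.6.2. DESeq2 is also listed in the submitters' processing notes, without a role. The deposited score is this read count after the authors' scaling on invariant genes, rounded to whole numbers, so it is no raw count, and no interval that needs the depth is given. Whether counting used strand is not given in the sources used here.

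Here log2(score + 1) was fitted with limma 3.58.1 (R 4.3.3, empirical Bayes with a trend) over all 27 samples in 9 groups, for the 12096 genes with at least 10 in at least 3 of the 6 samples of LPS 4 h and IL-4 4 h. P-values were adjusted over all of these genes by Benjamini-Hochberg at 0.05, and all p are two-sided. The 6 samples alone could not go below a p of 0.1 in an exact permutation test of 1 gene. The fit was tested on simulated data. Fold changes on this scale understate those of low genes, and a group listed at 0 was set to a floor of 3 where a fold is given.

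Named were the 10 protein-coding genes per direction with the largest difference, a mean of at least 50 in the higher group and no overlap of replicates; the 12 protein-coding opposed genes per kind with the largest smaller change, at least 1 in both arms, a mean of at least 50 and no overlap among the 3 groups; up to 2 genes per list and direction; and 14 fixed genes; a few of the genes so named are not reported here. The 18 lists (399 entries) were written from general knowledge. Members, lists and rules were chosen with earlier results of these data known. Same-numbered samples deviated together from their group means (correlations 0.105 to 0.504 over the pairs of groups). Replicates 2 and 3 of different groups did so too (0.109 to 0.301), whereas replicate 1 correlated negatively with either. Replicate 1 is thus set apart, but a pairing of 2 with 2 and 3 with 3 is not shown. The replicate number was entered as a block in an alternative fit. Other alternatives changed the pseudocount, the filter, the scaling, the samples fitted, the replicates and the treatment of overlapping genes. The study's impulse model of time courses was not run.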

Additional observations from a re-analysis of the deposited data

Results flagged for a closer look

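For 10 named genes the difference between LPS and IL-4 had 1 sign at 4 h and the other at 0.5 h, and the difference between these times, tested as an interaction in limma, passed 0.05 after adjustment over all genes. The change of the difference from 0.5 to 4 h was 6.30 for Fcgr1, 5.25 for Irf7, 5.02 for Slc7a2, 3.71 for Hk3, 3.45 for Itgam and 3.45 for Il4ra on the log2 scale, all moving towards LPS. It was −5.19 for Egr2, −2.70 for Csf1r, −2.50 for Stat6 and −1.56 for Runx1, all moving towards IL-4. The receptor gene Il4ra and the factor it acts through, Stat6, thus crossed in opposite directions, and so did Itgam and Csf1r. The cause of these crossings was not tested.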

How the results depend on the processing

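With at least 50 as the mean over the 6 samples 5191 genes were called, 2708 of them higher after IL-4, and without genes that overlap another gene 4357 were called, 1703 higher after LPS and 2654 higher after IL-4, with 210 and 173 opposed; fewer genes enter both fits. Rescaling to equal totals gave 374 genes that LPS raised and IL-4 lowered and 709 of the other kind. With replicates 2 and 3 averaged 276 and 213 genes were opposed, and leaving out 1 replicate or sample gave 237 to 693 genes that LPS raised and IL-4 lowered and 178 to 532 of the other kind; fewer samples enter these fits. With the replicate block 9179 genes were called, with 658 and 577 opposed, all 916 opposed genes included, the block moved no count but that of the cell cycle list by over 1.5 times, and changed no named gene's call between LPS and IL-4. Of the 24 named opposed genes, 23 or 24 stayed opposed in every alternative that tested all of them. Among the genes the rule names, equal totals turned Cs to −0.051, Mertk to −0.57 and Socs1 to −0.61; leaving out replicates or samples gave −0.22 to 0.24 for Mertk and −0.27 to 0.24 for Socs1, and neither passed as deposited. The causes were not tested. Low values limit the size of falls below about 3 normalised read counts.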
